A study of Mus musculus with 165 samples.

Results

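Long B domains are stretches of compartment B of 2 Mb or more. Parts without a value did not end a stretch, so a domain can hold gaps. They were taken from the authors' deposited list of negative domains of untreated neutrophils, on autosomes. Of 1492 autosomal B domains, 201 (13.5%) met the rule, and together they covered 652.1 Mb, or 46.6% of the 1399 Mb of autosomal B. The deposited list holds 1576 B domains in all, of which 16 long ones on the X chromosome were not used. Values in these domains were read from 25043 bins of 25 kb, 26.4% of the 94800 autosomal bins that had a value in all 4 tracks.

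In Hi-C, DNA segments that lie near each other in the nucleus are joined and sequenced as pairs. The first principal component (PC1) of the resulting contact matrix splits each chromosome into compartment A, the open and transcribed chromatin, and compartment B, the compact, gene-poor and mostly silent chromatin. Long B stretches commonly lie at the nuclear lamina or around nucleoli, replicate late and carry repressive marks. In neutrophils this heterochromatin is prominent, and the nucleus is lobed.

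The series asked how calcium signalling changes the architecture of the nucleus. It lists 165 samples, of which 17 are in situ Hi-C libraries. The other 148 were not analysed here. The 4 Hi-C groups were each represented by 1 PC1 track. All were ECOMG cells, a GM-CSF dependent myeloid line of C57BL/6 origin whose genotype is given as human E2A_ER_Pbx1b, wild type. The fusion keeps the cells undifferentiated while estradiol is present. Progenitors (a pool of 7 libraries) were undifferentiated cells. Untreated neutrophils (a pool of 8 libraries from 7 replicates) had spent 5 days without estradiol. Activated neutrophils received the calcium ionophore A23187 at 20 uM with calcium at 1 mM, for 15 min or for 30 min, with 1 sample at each time. All groups come from 1 line made by a fusion oncogene, and neutrophil identity was not checked here, since no expression values were used.

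With 1 track a group there was no replicate and no test, and spreads over chromosomes, domains or bins are not replicate error. Progenitor and untreated libraries are labelled as re-analysed and were, per the labels' protocols, sequenced on another instrument model than the activated ones, so treatment and sequencing batch cannot be told apart. Time after A23187 also cannot be told apart from replicate, because the labels number the 15 min sample as replicate 2 and the 30 min sample as replicate 1. PC1 is a score with a mean of 0 and an SD of 1 on every chromosome, negative in B. It shows where a bin stands on its own chromosome, not how strong the compartments are. The share of positive autosomal bins was 42.9% for progenitors, 41.7% for untreated neutrophils, 46.9% for 15 min and 44.0% for 30 min. Because these shares differ, each main comparison was repeated on quantile-normalized values, in which every track was given the value distribution of the untreated track, chromosome by chromosome. Since the untreated track defined the domains, its values are a description. As deposited, comparisons among the other 3 tracks did not use its values, but the domains and their ends were still set by it. Comparisons with the progenitor track share that track, as do those with the untreated track.

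Domain lengths ran from 2 Mb through a median of 2.825 Mb to 12.2 Mb. There were 67 domains of 2 to 2.5 Mb, 51 of 2.5 to 3 Mb, 46 of 3 to 4 Mb, 15 of 4 to 5 Mb and 22 of 5 Mb or more. Most were therefore near the lower limit, with a tail of very long ones. The share of a chromosome's bins that lay in long B domains was highest on chromosomes 12 (33.7%) and 17 (33.1%). It was lowest on chromosomes 13 (13.6%) and 19 (16.7%). Chromosome 3 held 16 of these domains and chromosome 19 held 3.

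Mouse chromosomes have their centromere near the start. When each chromosome was divided into equal proximal, middle and distal parts, 81 long domains (40.3%) lay in the proximal part, 73 (36.3%) in the middle and 47 (23.4%) in the distal part. The 1291 shorter autosomal B domains showed the opposite order, with 30.4%, 32.5% and 37.2%. Neighbouring long domains on a chromosome were separated by a median gap of 4.65 Mb over 182 gaps (range 0.025 to 40.475 Mb), and 25 gaps were under 0.5 Mb. Long domains also had more bins without a value than shorter B domains, 3.99% against 0.655%. The sources used here do not say why these bins lack a value. In the extreme case, on chromosome 1 from 85125001 to 87375000, 10 bins had values. Their mean PC1 was -0.459 in progenitors and -0.410 in untreated neutrophils, with -0.512 at 15 min and 0.379 at 30 min.

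The limit of 2 Mb falls between domains of nearly equal length, and their values, from 3 and 5 domains, are a description. The 3 domains of exactly 2 Mb had mean PC1 values in progenitors of -0.923, -0.806 and -0.525, and at 15 min of -0.947, -0.868 and -0.216. The 5 domains just under it, at 1.975 Mb, ran from -1.12 to -0.832 in progenitors and from -1.08 to -0.770 at 15 min. The highest value of either set belonged to the domain on chromosome 5 from 5775001 to 7775000, at -0.525 in progenitors and -0.502 in untreated neutrophils, with -0.216 at 15 min and -0.523 at 30 min. At 15 min 26.2% of the bins of that domain were positive.

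Compared with progenitors, most long B domains had a lower mean PC1 at 15 min, 152 of 201 (75.6%), against 47.7% of all autosomal B domains. At 30 min 128 of 201 (63.7%) were lower than in progenitors, against 47.0% of all. From 15 to 30 min 54 of 201 (26.9%) were lower, against 49.6% of all. Each such count was taken over all bins of a domain. After quantile normalization the contrast at 15 min was small: 113 of 201 long domains (56.2%) and 52.3% of all B domains were lower. At 30 min 109 of 201 (54.2%) were then lower, against 47.3% of all, and the direction of the comparison between 15 and 30 min changed, with a mean difference of -0.00276 in place of 0.0303. For comparisons with the untreated track, which chose the domains, 64 of 201 were lower than in progenitors (52.7% of all), and relative to it 168 were lower at 15 min (34.1% of all) and 141 at 30 min (38.0% of all).

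The size of the difference was ordered by domain length in the values as deposited. At 15 min the mean over bins was above that of progenitors by 0.0832 in domains under 0.25 Mb, by 0.0460 at 0.25 to 0.5 Mb and by 0.0183 at 0.5 to 1 Mb. It was -0.00616 at 1 to 2 Mb, -0.0470 at 2 to 3 Mb and -0.0786 at 3 Mb or more. As deposited, mean PC1 at 15 min was thus higher than in progenitors in short B domains, and lower in long ones. In the class under 0.25 Mb the progenitor mean was already above zero, at 0.00912, against -0.300 in the untreated track that chose the domains. The share of domains that were lower increased over the same classes, from 40.3% through 50.6% at 1 to 2 Mb to 79.5% at 3 Mb or more. At 30 min the order was less regular, with 0.0826 in the shortest class, -0.0455 at 0.5 to 1 Mb, -0.00160 at 1 to 2 Mb and -0.0553 at 3 Mb or more. Quantile normalization turned the short classes round (-0.110 under 0.25 Mb at 15 min) and left the longest at -0.0157. The steady order by length was thus a feature of the values as deposited, and it was not seen in the short classes after normalization.

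**Figure D1:**
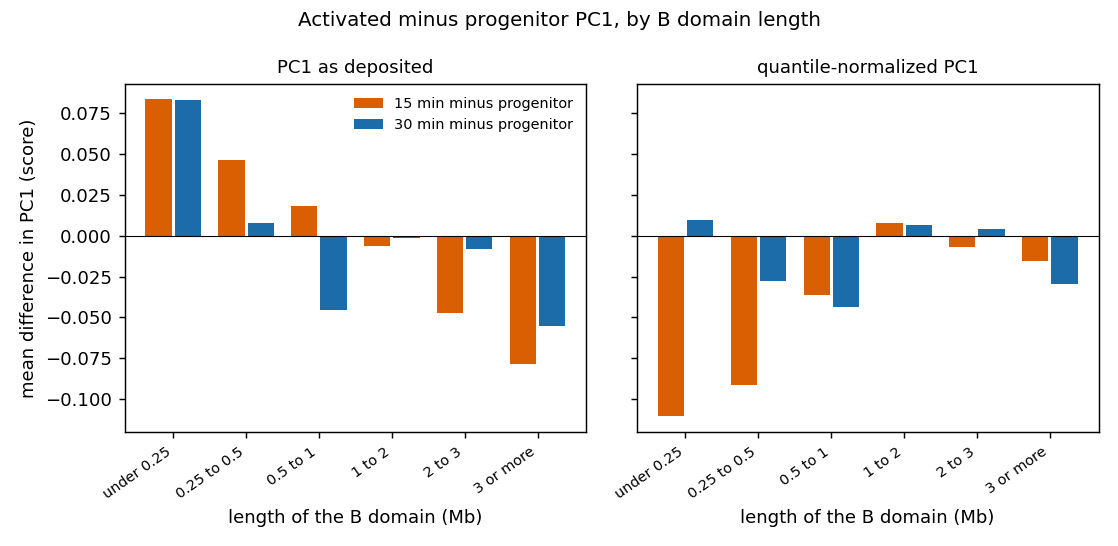
Mean difference in PC1 (score) from the progenitor track at 15 min (orange bars) and 30 min (blue bars), by length of the B domain in Mb, for the values as deposited (left) and after quantile normalization to the untreated track (right). On the left the bars at 15 min run from 0.0832 in the shortest class to -0.0786 in the longest; on the right the shortest class lies at -0.110 and the longest at -0.0157.

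The interior of a domain was defined as the bins at least 500 kb from both ends, which gave 17153 bins in 200 domains. Mean interior PC1 was -0.907 in progenitors and -0.905 in untreated neutrophils, with -1.02 at 15 min and -0.967 at 30 min. The SD over chromosomes was 0.111, 0.0884, 0.100 and 0.0903 in the same order. As deposited, progenitors and untreated neutrophils were thus nearly equal, and both activated tracks were lower. Chromosome 13 had the lowest interior in all 4 tracks, at -1.21, -1.14, -1.29 and -1.21. The highest was on chromosome 3 in progenitors (-0.786) and at 30 min (-0.864), on chromosome 14 in untreated neutrophils (-0.796) and on chromosome 8 at 15 min (-0.880).

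From progenitors to 15 min the interior mean was lower by a difference of -0.108. It was lower in 170 of 200 domains and on 19 of 19 autosomes, from -0.208 on chromosome 18 to -0.0378 on chromosome 11. At 30 min the difference from progenitors was -0.0600, with 155 of 200 domains and 17 of 19 chromosomes lower. The highest value was on chromosome 9, at 0.00988. From 15 to 30 min the interior was higher by 0.0483, in 151 of 200 domains and on 18 of 19 chromosomes. On chromosome 8 it was lower, by a difference of -0.00215. As deposited, most interiors were thus lower than in progenitors at both times, and higher at 30 min than at 15 min. Progenitors and untreated neutrophils differed by 0.00188, with 114 domains higher and 86 lower. With quantile-normalized values the interior means came to -0.891, -0.905, -0.921 and -0.924 (progenitor, untreated, 15 min, 30 min). The differences from progenitors then were -0.0298 at 15 min, and from 15 to 30 min -0.00392, with the direction turned. The untreated mean then lay between those of progenitors and 15 min, so the near equality of progenitors and untreated neutrophils did not remain. No count of interiors after normalization or over shorter B domains is given. Over all bins, the normalized count at 15 min was 113 of 201 long domains lower (56.2%), against 52.3% of all B domains.

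**Figure D2:**
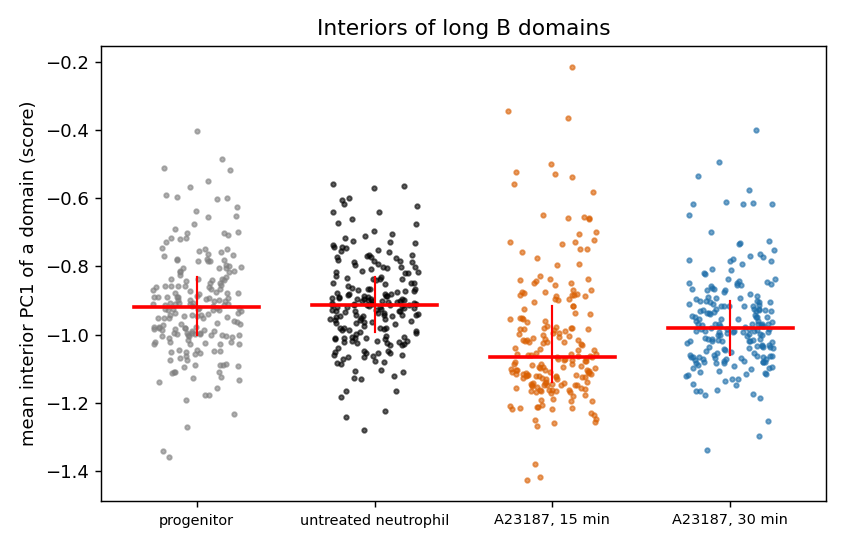
Mean interior PC1 (score) of each of 200 long B domains in the 4 tracks; each point is 1 domain, the red horizontal line is the median over domains and the red vertical line spans the quartiles. The median is -0.919 in progenitors and -0.912 in untreated neutrophils, with -1.06 at 15 min and -0.980 at 30 min, and a tail of domains at 15 min reaches up to -0.215.

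The domains kept much of their order between tracks. Pearson r of the interior means over 200 domains was 0.801 for progenitor with 15 min, 0.859 for progenitor with 30 min, 0.798 between 15 and 30 min and 0.915 for progenitor with untreated. For the fine structure, each bin's deviation from its domain mean was compared over the 17153 interior bins. There r was 0.656 for progenitor with 15 min, 0.773 for progenitor with 30 min and 0.722 between 15 and 30 min. Bins of a domain share libraries, and neighbouring values were computed in overlapping windows of 50 kb, so these r values are descriptions only.

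The interiors were least even at 15 min. The SD of bins around their domain mean was 0.145 in progenitors and 0.114 in untreated neutrophils, with 0.209 at 15 min and 0.131 at 30 min. Bins 50 kb apart covaried within domains by 0.0374 at 15 min, against 0.0159 in progenitors and 0.00889 in untreated neutrophils, with 0.0140 at 30 min. At 500 kb the covariance was 0.00309 at 15 min and 0.000628 in progenitors. The wider spread at 15 min was thus shared by bins 50 kb apart. A local variance was estimated from each bin's difference from the mean of the bins 50 kb before and after it. It was 0.00339 at 15 min and 0.00353 in progenitors, with 0.00273 in untreated neutrophils and 0.00179 at 30 min. This estimate can hold local structure as well as noise. After quantile normalization the SD within domains at 15 min was 0.137, no higher than the 0.139 of progenitors, with 0.111 at 30 min.

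Among length classes, domains of 5 Mb or more had the highest interior mean in progenitors, -0.853 against -0.941 in domains of 2 to 2.5 Mb. In untreated neutrophils these classes stood at -0.860 and -0.930, and at 30 min at -0.953 and -0.977. At 15 min the class of 2.5 to 3 Mb was the highest, at -0.975, and the class of 5 Mb or more followed at -0.988. The class of 4 to 5 Mb was the lowest in progenitors (-0.960) and at 15 min (-1.08), so there was no steady order with length.

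The longest B domain lay on chromosome 15 from 12825001 to 25025000 (12.2 Mb). Its interior mean was -0.653 in progenitors and -0.768 in untreated neutrophils, with -0.886 at 15 min and -0.847 at 30 min. The progenitor track was highest here, and it held a broad positive stretch near the middle of the domain. From 17525001 to 18300000 (775 kb), mean PC1 was 0.324 in progenitors and -0.405 in untreated neutrophils, with -0.2001 at 15 min and -0.127 at 30 min. The summit bin at 17800001 read 0.695, -0.281, 0.0864 and -0.100 in that order. Its height above the domain's interior median was 1.45 in progenitors and 0.539 in untreated neutrophils, with 1.15 at 15 min and 0.854 at 30 min. A raised region thus remained in all 4 tracks, although it was negative in untreated neutrophils. Over the whole domain 6.56% of bins were positive in progenitors, 3.07% at 15 min and 0.205% at 30 min.

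**Figure D3:**
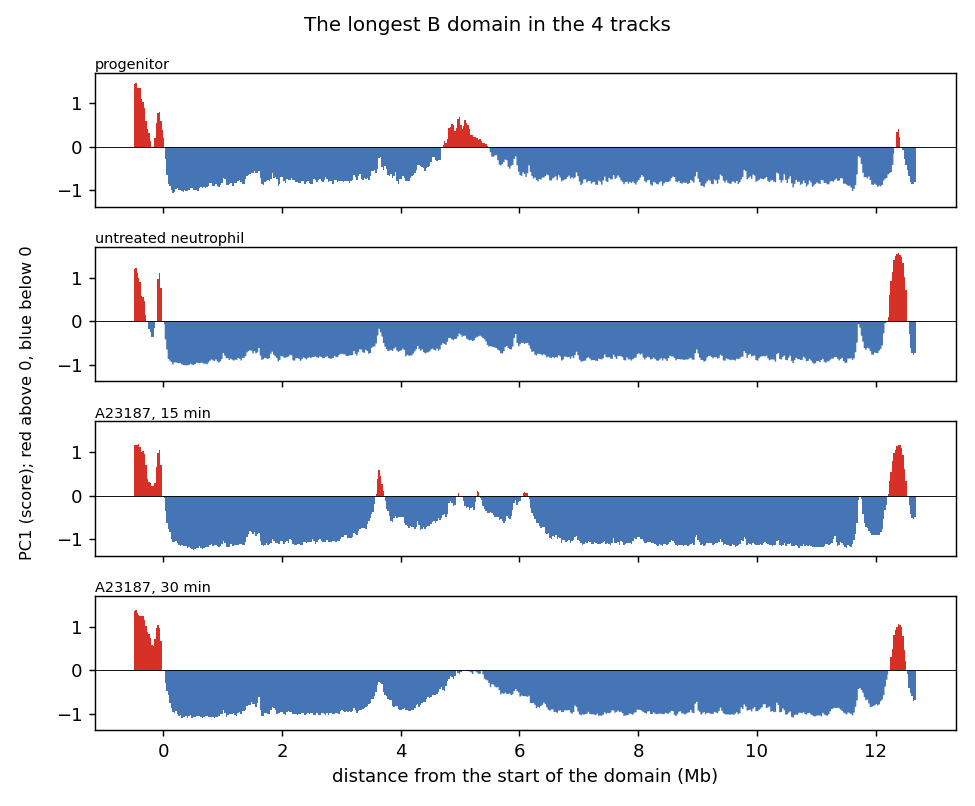
PC1 (score; red above 0, blue below 0) along the 12.2 Mb domain of chromosome 15 and 500 kb on either side, by distance from the domain start in Mb, in the 4 tracks. The positive stretch near 5 Mb in the top panel (775 kb, mean 0.324) is below 0 in untreated neutrophils; other narrow positive peaks appear at 15 min and are below 0 at 30 min.

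Of the other 4 longest domains, 3 also had their highest interior mean in progenitors, though by less. On chromosome 14, 87925001 to 97375000 (9.45 Mb) had interior means of -0.756, -0.766, -0.988 and -0.867 (progenitor, untreated, 15 min, 30 min). On the same chromosome, 107550001 to 115400000 (7.85 Mb) had -0.814, -0.757, -0.998 and -0.932, and none of its bins was positive in any track. On chromosome 2, 94300001 to 101400000 (7.1 Mb) had -0.999, -1.01, -1.10 and -1.12. The domain of 7.85 Mb was the exception, with its highest mean in untreated neutrophils. The domain on chromosome 5 from 54600001 to 62925000 (8.325 Mb) had -0.718 in progenitors and -0.780 in untreated neutrophils, with -0.723 at 15 min and -0.890 at 30 min. At 15 min 9.61% of its bins were positive, against 2.10% in progenitors and 0 at 30 min.

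A few domains stood against the general direction at 15 min. On chromosome 4, 12050001 to 14700000 had an interior mean of -0.748 in progenitors and -0.726 in untreated neutrophils, with -0.215 at 15 min and -0.849 at 30 min. A positive island of 425 kb (13300001 to 13725000) lay inside it at 15 min, with a mean of 0.422 against -0.582, -0.512 and -0.713 in progenitors, untreated neutrophils and at 30 min. It was the domain with the largest difference in either direction. On chromosome 8, 14150001 to 17250000 had -0.603, -0.718, -0.364 and -0.753, and on chromosome 11, 11725001 to 16825000 had -0.952, -0.926, -0.734 and -0.913. At 30 min the domains on chromosomes 4 and 8 were below their progenitor value, and the domain on chromosome 11 was 0.0382 above it.

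The domains lowest at 15 min relative to progenitors were on chromosomes 8, 16 and 18. On chromosome 8, 55675001 to 59000000 had -0.702 in progenitors and -1.04 at 15 min, in 26 interior bins. On chromosome 16, 70550001 to 75675000 had -0.806 and -1.13, and on chromosome 18, 85150001 to 88925000 had -0.859 and -1.16. At 30 min these domains read -0.909, -0.911 and -1.07, between the other 2 values in each case.

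The domains most raised at 30 min over progenitors were smaller. On chromosome 16, 52725001 to 55475000 had an interior mean of -0.637 in progenitors and -0.676 in untreated neutrophils, with -0.500 at 15 min and -0.400 at 30 min. It contained an island of 375 kb (53875001 to 54250000) with 0.148 at 30 min against -0.293 in progenitors and -0.248 at 15 min, and 19.1% of its bins were positive at 30 min. On chromosome 2, 49600001 to 51775000 had -1.002 in progenitors and -0.848 at 30 min, and on chromosome 10, 34150001 to 36700000 had -0.921 and -0.772. The lowest relative to progenitors were on chromosome 9 from 75450001 to 77500000 (-0.872 and -1.10), on chromosome 8 from 51050001 to 54450000 (-0.549 and -0.770) and on chromosome 5 from 93750001 to 96475000 (-0.590 and -0.808). The last rests on 26 interior bins.

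From 15 to 30 min the largest increases were on chromosome 8 from 64875001 to 67100000 (-1.05 to -0.780), on chromosome 3 from 79500001 to 81725000 (-1.02 to -0.784) and on chromosome 9 from 15700001 to 18075000 (-1.15 to -0.935). In progenitors these domains read -0.806, -0.881 and -0.982. The largest decreases were the domains of chromosomes 4 and 8 named for their high value at 15 min, and a further one on chromosome 4 from 66825001 to 69900000, with -0.952 in progenitors, -0.758 at 15 min and -1.01 at 30 min. These domains were chosen for their difference between 15 and 30 min, so their place relative to progenitors is a description.

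At the ends of the domains the activated tracks were higher than progenitors, not lower. Within 50 kb inside the 402 ends, mean PC1 was -0.541 in progenitors and -0.321 in untreated neutrophils, with -0.220 at 15 min and -0.374 at 30 min. The difference from progenitors was 0.321 at 15 min and 0.167 at 30 min, each higher on 19 of 19 chromosomes. From 50 to 100 kb it was 0.182 and 0.0967, and from 100 to 200 kb 0.0630 and 0.0381. At 200 to 300 kb the sign turned, to -0.0274 and -0.00588. At 750 to 1000 kb inside, the means were -0.919 in progenitors and -0.914 in untreated neutrophils, with -1.02 at 15 min and -0.965 at 30 min. The profile of an average domain at 15 min was thus higher at the rim and lower in the core than in progenitors. The ends, however, are sign changes of the untreated track. At 0 to 50 kb that track was itself above progenitors by 0.219, on 19 of 19 chromosomes. How much of the contrast follows from this choice of ends was not tested.

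Part of this contrast remained after quantile normalization. Within 50 kb of the ends the difference from progenitors was then 0.118 at 15 min and 0.113 at 30 min, and at 750 to 1000 kb it was -0.0254 and -0.0246. The excess of 15 min over 30 min at the ends did not remain: the difference of 30 min from 15 min there was -0.155 as deposited, lower on 19 of 19 chromosomes, and -0.00537 after normalization. Against untreated neutrophils, whose sign changes define the ends, the value at 15 min was 0.102 higher as deposited and -0.105 after normalization.

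**Figure D4:**
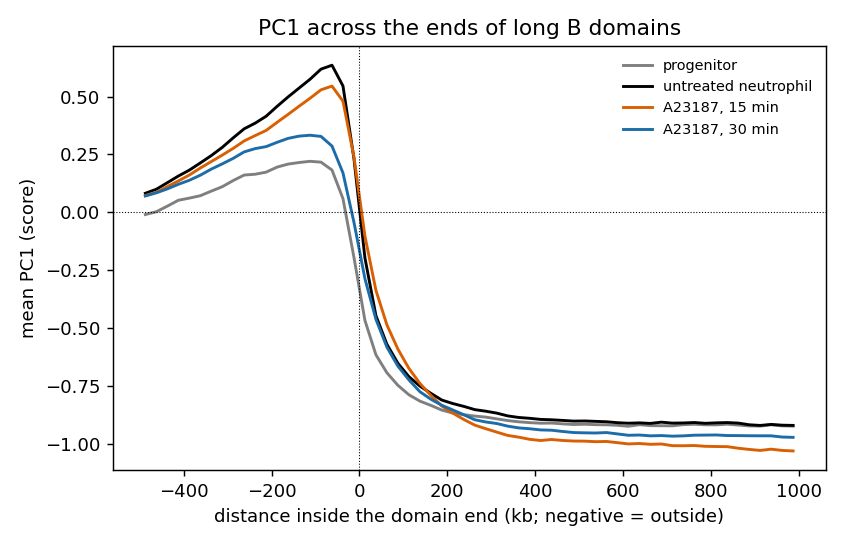
Mean PC1 (score) by distance in kb from the 402 ends of long B domains, positive inside and negative outside, in the 4 tracks. The progenitor line lies lowest from outside the end to about 200 kb inside, and the 15 min line lies lowest from 300 kb inwards (-1.02 at 750 to 1000 kb).

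The point where PC1 crosses zero was compared with the deposited end, within 500 kb. In progenitors a crossing was found at 338 of 402 ends, and it lay outside the domain at 240 ends, at the same bin at 65 and inside at 33 (median 25 kb outside). At 15 min it was found at 384 ends, inside at 150, at the same bin at 165 and outside at 69. At 30 min it was found at 329 ends, inside at 80, the same at 89 and outside at 160. As deposited, B stretches in progenitors thus mostly ended beyond the deposited ends, and those at 15 min more often inside than outside them. The deposited ends are sign changes of the untreated track, and how far this choice shapes the shifts was not tested. Most shifts were small, since a shift of 100 kb or more into the domain was seen at 12, 28 and 12 ends in progenitors, at 15 min and at 30 min.

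Compared directly, from progenitors to 15 min the crossing was farther inside the domain at 276 of 336 ends (82.1%), unchanged at 45 and farther outside at 15. From progenitors to 30 min it was farther inside at 176 of 314 ends, unchanged at 99 and farther outside at 39. From 15 to 30 min it was farther outside at 206 of 328 ends, unchanged at 88 and farther inside at 34. The median step was 25 kb, 1 bin, in each comparison. Only ends with a crossing within 500 kb in both tracks entered these counts. No share over the ends of all B domains is given, so the shifts cannot be called particular to long domains. Relative to the untreated ends, the position at 15 min changed side under quantile normalization. The share of ends inside minus the share outside was 21.1 percentage points as deposited and -37.4 after normalization.

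The length of the neighbouring A domain went with these values. At 115 ends the adjoining A domain was under 0.25 Mb. In the 100 kb outside such ends, mean PC1 was 0.0502 in progenitors and 0.547 in untreated neutrophils, with 0.435 at 15 min and 0.0507 at 30 min, and 23 ends in progenitors and 30 at 30 min had no crossing at all. At the 57 ends beside an A domain of 1 Mb or more, the values were 0.355, 0.719, 0.720 and 0.635, and 1 end in progenitors and 0 at 30 min lacked a crossing. Short A domains of untreated neutrophils were thus often near or below zero in progenitors and at 30 min. Since the untreated track defined these A domains, its own high value is part of their choice. Most ends without a crossing were elsewhere, at the 71 ends with no listed A domain within 100 kb. Of these, 35 lacked a crossing in progenitors, 13 at 15 min and 39 at 30 min. At the 159 ends beside an A domain of 0.25 to 1 Mb, 5, 1 and 4 lacked it.

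When long B runs were called by sign in each track by itself, the tracks differed in how much B was joined. A bin without a value did not end a run. Progenitors had 221 runs of 2 Mb or more (770.9 Mb, longest 11.45 Mb), untreated neutrophils 201 (652.1 Mb), the 15 min track 183 (580.2 Mb, longest 9.375 Mb) and the 30 min track 221 (799.1 Mb, longest 9.6 Mb). The runs of progenitors held 94.1% of the bins of the long domains, those at 15 min 83.8% and those at 30 min 97.1%. Conversely, 79.9%, 94.6% and 79.2% of the bins of these runs lay in the long domains. In progenitors 22 domains were joined with another in 11 runs, at 15 min 10 in 5 runs and at 30 min 28 in 14 runs. Long B runs thus had the smallest total length at 15 min and the largest at 30 min. Quantile normalization brought the counts to 231 runs in progenitors, 213 at 15 min and 235 at 30 min.

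Bins counted as switched had a sign change no smaller than 0.5 of the earlier track's root mean square and stood in runs of 2 or more. From progenitors to 15 min, 354 bins of long domains (1.41%) went from B to A, in 123 runs and 87 domains, against 3.11% of all autosomal bins. In the opposite direction 88 bins (0.351%) went from A to B, against 0.591%. Of the 354 bins, 126 (35.6%) lay within 100 kb of an end and 152 lay at least 500 kb inside. The rims held few of the 25043 bins, 803 at 0 to 50 kb and 799 at 50 to 100 kb, and the interior held 17153. As deposited, switches into A were thus less frequent than over all autosomal bins. Within the domains they were found at the rims and deep inside, but per bin they were more frequent at the rims. The ends are sign changes of the untreated track, and how far this favours sign changes near them was not tested. The domains were chosen as long negative stretches. A lower share of sign changes, here and between the other tracks, can follow from that choice, and how much does was not tested. In progenitors 1.04% of their bins were positive and could go from A to B, against 42.9% of autosomal bins. After quantile normalization the excess of switches into A over switches into B was gone, with 0.335% entering A and 0.507% entering B. For this and all other normalized shares of switched bins, no share over all autosomal bins is given. Whether long domains differed from all bins after normalization is therefore not known.

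From progenitors to 30 min, 99 bins (0.395%) went from B to A, against 1.57% of all, and 100 (0.399%) from A to B, against 0.924%. From 15 to 30 min, 35 bins (0.140%) went from B to A, against 0.501%, and 253 (1.01%) from A to B, against 1.62%. Switches from B to A were thus more frequent from progenitors to 15 min than from progenitors to 30 min. The same order was seen over all autosomal bins (3.11% and 1.57%), so it is not particular to long domains. After quantile normalization the share from B to A at 30 min was 0.132% and that from A to B 0.403%, and from 15 to 30 min they were 0.136% and 0.303%. From progenitors to untreated neutrophils 169 bins (0.675%) went from A to B, against 3.23%. The opposite switch was 0 by the choice of domains, against 1.55% of all bins. Relative to untreated neutrophils, 301 bins (1.202%) were in A at 15 min, against 3.26%, and 91 (0.363%) at 30 min, against 2.59%. The switch from A to B was again 0 by the choice of domains, against 0.187% and 0.808% of all bins.

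Positive bins inside the domains were gathered into islands, runs of at least 2 positive bins lying 100 kb or more from both ends. There were 33 islands in progenitors (4.475 Mb in 27 domains), 77 at 15 min (8.65 Mb in 53 domains) and 17 at 30 min (2.275 Mb in 14 domains), and 0 in untreated neutrophils by the choice of domains. Domains whose bins were all negative numbered 149 of 201 in progenitors, 65 at 15 min and 128 at 30 min. Islands were thus most numerous at 15 min. As deposited, positive bins were most frequent at 15 min over all autosomal B domains too. There they made up 7.08% of bins in progenitors, 9.49% at 15 min and 6.71% at 30 min. In long domains the shares were 1.04%, 2.59% and 1.01%, so the order is not particular to long domains. Islands called after quantile normalization, however, numbered 31 at 15 min, 28 in progenitors and 6 at 30 min.

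The islands were largely those of their own track. Of the 77 islands at 15 min, 12 had a positive mean in progenitors and 7 at 30 min, and their median was -0.436 in progenitors and -0.391 in untreated neutrophils, with -0.384 at 30 min. Of the 33 islands of progenitors, 13 were positive at 15 min and 4 at 30 min. Of the 17 islands at 30 min, 5 were positive in progenitors and 7 at 15 min. An island is chosen by its own track, so its value elsewhere is expected to be lower, and how much lower chance alone gives was not tested.

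At 15 min the longest island (450 kb) lay on chromosome 8 from 16150001 to 16600000, with 0.313 at 15 min, -0.00433 in progenitors and -0.468 in untreated neutrophils, with -0.672 at 30 min. Next to the island of chromosome 4 described above came 1 of 400 kb on chromosome 14 from 116300001 to 116700000, with 0.226 at 15 min, -0.313 in progenitors and -0.252 in untreated neutrophils, with 0.0769 at 30 min. It is the site of an island at 30 min as well, from 116325001 to 116575000 (250 kb), with 0.191 at 30 min and 0.205 at 15 min. This place was positive at both times of activation and negative in progenitors and untreated neutrophils.

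Besides the stretch in the longest domain, the longest progenitor islands were 3 of 275 kb. On chromosome 16, 72650001 to 72925000 had 0.502 in progenitors and -0.479 in untreated neutrophils, with -0.896 at 15 min and -0.229 at 30 min. On chromosome 4, 64200001 to 64475000 had 0.353, -0.440, -0.207 and -0.357. On chromosome 8, 37625001 to 37900000, equal in length but outside the naming rule, had 0.305, -0.586, -0.532 and -0.285. All 3 were negative in the neutrophil tracks. Elsewhere in the domain of chromosome 4 lay 1 of the 2 longest islands at 30 min, from 65675001 to 66050000 (375 kb, as long as that on chromosome 16), with 0.00352 in progenitors and -0.132 in untreated neutrophils, with -0.260 at 15 min and 0.370 at 30 min.

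Internal peaks were local maxima of the mean of the 3 tracks that did not choose the domains, at least 500 kb from both ends and with a prominence (height over the higher of the flanking low points) of at least 0.5. There were 83 in 70 domains. Their mean height above the interior median of the domain was 0.615 ± 0.367 in progenitors and 0.543 ± 0.205 in untreated neutrophils, with 0.916 ± 0.364 at 15 min and 0.527 ± 0.233 at 30 min (SD over 83 peaks, which are not replicates). The peak was taller at 15 min than in progenitors at 65 of 83 sites, and taller at 30 min than at 15 min at 17 of 83. The summit was positive at 16 sites in progenitors, 36 at 15 min and 6 at 30 min. The 15 min track had the tallest mean, and the other 3 means lay close together. Since 3 of these tracks found the peaks, the heights are a description.

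The comparison between progenitors and 15 min depended on how peaks were found. At 78 peaks found in the progenitor track alone, mean height was 0.732 in progenitors and 0.489 in untreated neutrophils, with 0.746 at 15 min and 0.483 at 30 min, and 40 of 78 were taller at 15 min. After quantile normalization the difference at 15 min was -0.00897 in place of 0.301. The lower height at 30 min than at 15 min kept its direction in both of these alternatives, at -0.263 for progenitor peaks and -0.209 after normalization.

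**Figure D5:**
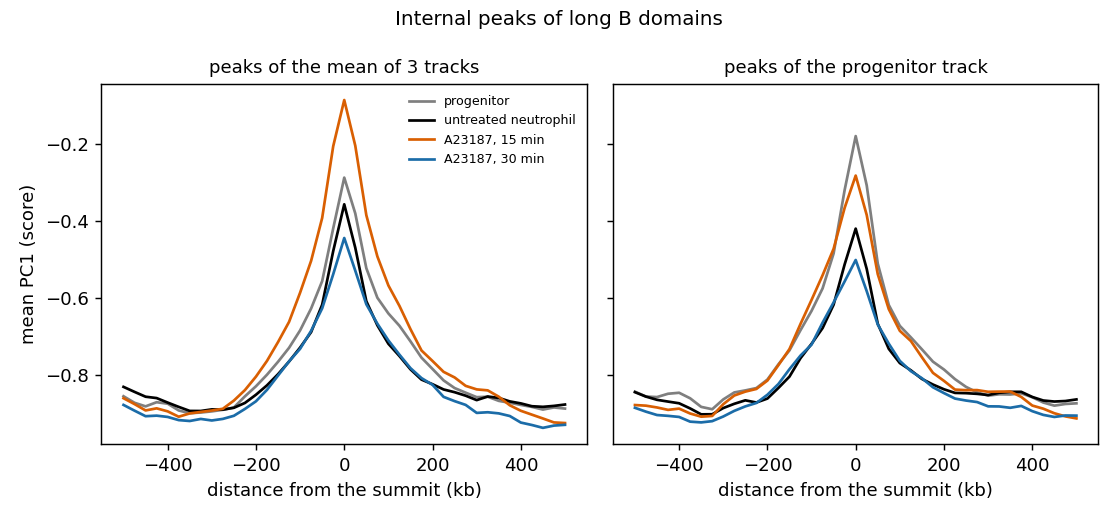
Mean PC1 (score) by distance in kb from the summit of internal peaks, in the 4 tracks, for 83 peaks of the mean of 3 tracks (left) and 78 peaks of the progenitor track (right). At the summit the 15 min line is the highest on the left (-0.0852), the progenitor line is the highest on the right (-0.179), and the 30 min line is the lowest on both sides.

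The 5 most prominent peaks all had a summit above zero in progenitors and below zero in untreated neutrophils. Apart from the summit on chromosome 15, they were on chromosome 4 at 64250001 (0.672 in progenitors, -0.154 untreated, 0.150 at 15 min, -0.228 at 30 min), on chromosome 12 at 90175001 (0.774, -0.135, 0.585, -0.485), on chromosome 16 at 72750001 (0.789, -0.228, -0.693, 0.0645) and on chromosome 4 at 65875001 (0.345, -0.0929, -0.102, 0.495). The activated tracks had no common sign at these sites. At 15 min 3 of the 5 were positive, and at 30 min 2 of the 5. The site on chromosome 12 had the largest loss of height from progenitors to 30 min, and the site on chromosome 16 the largest loss to 15 min. Further sites lower at 15 min than in progenitors were on chromosome 13 at 60975001 (0.111 and -0.751) and on chromosome 4 at 90950001 (-0.256 and -1.15).

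The 3 peaks that gained most height at 15 min over progenitors were low in the other tracks. On chromosome 4 the summit at 69050001 read -0.755 in progenitors and -0.517 in untreated neutrophils, with 0.589 at 15 min and -0.978 at 30 min. On chromosome 1 the summit at 117400001 read -0.994, -0.667, 0.230 and -1.03, and the summit at 114650001 read -0.885, -0.592, 0.267 and -1.12. At these 3 sites the value at 30 min was below that of progenitors. The next in order, on chromosome 17 at 51950001 and outside the naming rule, went the other way, with -0.823 in progenitors and -0.660 at 30 min. Among the largest losses from 15 to 30 min was also the summit on chromosome 6 at 11050001, which was 0.633 at 15 min, -0.472 in progenitors and -0.626 at 30 min.

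The largest gains in height at 30 min over progenitors were smaller. On chromosome 14 the summit at 116375001, in the island seen at both times, read -0.256 in progenitors and -0.00749 in untreated neutrophils, with 0.322 at 15 min and 0.241 at 30 min. On chromosome 5 the summit at 26725001 read -0.631, -0.573, -0.334 and -0.117. On chromosome 13 the summit at 86950001 read -0.517, -0.0930, -0.462 and -0.271. The loss at 30 min on chromosome 8 at 16275001 (0.419 in progenitors, -0.336 untreated, 0.360 at 15 min, -0.457 at 30 min) lay in the domain that also held the longest island at 15 min.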

How the data were processed

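Hi-C was analysed as 4 PC1 tracks and the domain list of the untreated track. Per the submitters' processing notes, HiC-Pro, Bowtie2 and HOMER were used on build mm9; the sources used here give no versions or settings. PC1 values as deposited are scores, spaced at 25 kb in windows of 50 kb. In 201 of 201 long domains the deposited score matched the domain's mean untreated PC1 within 0.001. No counts come with the tracks, so depth is unknown and no interval is given.

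Bins non-zero in all 4 tracks, with their centre in a domain, were used (Python 3.11.15, pandas 2.3.3, NumPy 2.4.6, SciPy 1.17.1). Procedures were tested on simulated data. Domains named are the 5 longest, the 3 highest and 3 lowest differences per pair of tracks other than untreated (at least 20 interior bins) and those at the length limit; peaks and islands followed like rules. A few further domains were named after their values were seen. Members and lists were chosen with earlier results of these data known. Alternatives were other length limits, definitions and scalings, and leaving out each chromosome. Coordinates are 1-based mm9. Genes and sequences in the domains were not used here. Whether the PC1 sign follows gene density was not tested.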

Additional observations from a re-analysis of the deposited data

Results flagged for a closer look

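Screened were 21 domains named for their length or difference, 15 named peaks, 9 named islands and the edge zones. At 26 of these places the change from untreated neutrophils had opposite signs at 15 min and 30 min. Many of the domains and peaks were named for their differences between tracks, also between 15 and 30 min, and each island was chosen by its own track. Opposite signs can follow from that choice, so the count of 26 is no measure of frequency. Other domains and peaks, also the domains at the length limit, were not screened. Each place has 1 track a group, all changes share the untreated track, and the difference was not tested. The values below are PC1 at 30 min minus 15 min.

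Among domain interiors, those higher at 15 min and lower at 30 min than in untreated neutrophils were on chromosome 5 from 54600001 to 62925000 (-0.167), chromosome 4 from 12050001 to 14700000 (-0.635), chromosome 8 from 14150001 to 17250000 (-0.389) and chromosome 4 from 66825001 to 69900000 (-0.256). The opposite order was seen on chromosome 10 from 34150001 (0.179), chromosome 8 from 64875001 (0.274), chromosome 3 from 79500001 (0.234) and chromosome 9 from 15700001 (0.220).

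Among peak summits, those higher at 15 min and lower at 30 min were on chromosome 4 at 64250001 (-0.378) and 69050001 (-1.57), chromosome 12 at 90175001 (-1.07), chromosome 1 at 117400001 (-1.26) and 114650001 (-1.39), chromosome 8 at 16275001 (-0.817) and chromosome 6 at 11050001 (-1.26). The opposite order was seen on chromosome 16 at 72750001 (0.758), chromosome 4 at 65875001 (0.597) and 90950001 (0.608) and chromosome 13 at 60975001 (0.284).

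Islands with the first order were on chromosome 8 from 16150001 (-0.985) and chromosome 4 from 13300001 (-1.14), and with the second on chromosome 4 from 65675001 (0.630) and chromosome 16 from 72650001 (0.667). The rims of the domains were higher at 15 min and lower at 30 min than in untreated neutrophils, with differences of -0.155 at 0 to 50 kb, -0.0850 at 50 to 100 kb and -0.0249 at 100 to 200 kb inside the ends. After quantile normalization both times were below untreated neutrophils in these zones, by differences of -0.105 and -0.110 at 0 to 50 kb, -0.0249 and -0.0231 at 50 to 100 kb, and -0.00313 and -0.00499 at 100 to 200 kb.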

How the results depend on the processing

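No paired analysis was possible because each group has 1 track. Of 432 alternatives over 34 results, 371 kept the direction and stayed within a set limit. That limit was the SD over chromosomes (for peak heights, over peaks) or, for counts and shares, a factor of 1.5. Beyond it moved 52, and 9 changed direction. For the interior results, many alternatives left out 1 of 19 autosomes. Such a step can hardly move a mean by the SD over chromosomes, so the count of 371 is no measure of stability. The cause of the shifts beyond the limit was not tested.

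Interior differences moved as follows. From progenitors to 15 min (-0.108 as reported), the value was -0.0644 over all bins, -0.0298 after quantile normalization and -0.161 for medians. From progenitors to 30 min it was -0.107 on ranks. From 15 to 30 min (0.0483) it was -0.00392 after quantile normalization, 0.0941 for medians and 0.0839 over B runs of the 15 min track. From progenitors to untreated (0.00188) it was -0.00116 at a limit of 3 Mb, -0.0143 after quantile normalization, -0.0339 on ranks, 0.0425 over B runs of progenitors, and -0.00168 without chromosome 6 and -0.000144 without chromosome 14, so its sign is not fixed. From untreated to 15 min it was -0.0155 after quantile normalization and -0.165 for medians, and from untreated to 30 min -0.0194 after quantile normalization. Leaving out each chromosome gave -0.112 to -0.105 for 15 min and -0.0632 to -0.0556 for 30 min against progenitors.

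Shares of switched bins moved with the call rule. With sign change alone they were 0.583% (progenitor to 15 min, A to B), 0.671% and 0.743% (progenitor to 30 min, B to A and A to B), 0.323% and 1.71% (15 to 30 min), 2.13% (untreated to 15 min, B to A) and 0.823% (untreated to 30 min, B to A). At a limit of 1 root mean square, progenitor to 15 min gave 0.228% B to A and 0.0719% A to B, progenitor to 30 min 0.0359% and 0.0280%, and 15 to 30 min 0.0200% and 0.276%. Progenitor to untreated then gave 0.0519% A to B, untreated to 15 min 0.0799% and untreated to 30 min 0.00799% B to A. After quantile normalization, B to A gave 0.335% (progenitor to 15 min), 0.132% (progenitor to 30 min), 0.264% (untreated to 15 min) and 0.136% (untreated to 30 min), and 15 to 30 min A to B gave 0.303%. At 3 Mb, B to A gave 0.196% (progenitor to 30 min), 0.0145% (15 to 30 min) and 0.0800% (untreated to 30 min).

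At 3 Mb there were 83 domains, 16, 44 and 6 islands (progenitor, 15 min, 30 min) and 51 peaks, and the ends at 30 min gave -36.5 percentage points (inside minus outside; -24.3 as reported). After quantile normalization the ends gave -37.4 at 15 min (21.1 as reported) and -45.0 at 30 min, with 31 islands at 15 min and 6 at 30 min. Runs of 4 bins or more gave 16, 38 and 9 islands, and single bins gave 28 at 30 min. Peaks numbered 170 at a prominence of 0.3 and 35 at 0.75. Alternatives chosen after seeing the data gave 132 peaks from the 15 min track, 53 from the 30 min track and 50 after quantile normalization. The height difference from progenitors was then -0.00897 at 15 min after normalization, and 0.0301 at 30 min with peaks of the 30 min track (-0.0886 as reported).

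Depth is unknown, single bins carry no error, and no difference has a replicate check. Values near zero change sign easily.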
